A study of Mus musculus with 6 samples.

Results

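Costimulatory receptors and ligands are the paired surface molecules that help decide whether a T cell acts on the antigen it sees. The 10 genes described here, chosen by symbol among 31053 genes in the deposited matrices, are the receptors Tnfrsf4 (OX40), Tnfrsf9 (4-1BB) and Tnfrsf18 (GITR), the ligands Tnfsf4 (OX40L) and Tnfsf9 (4-1BBL), Icos and its ligand Icosl, Cd28, and Cd40 with its ligand Cd40lg. All 10 were found. They were followed across T cell subsets, B, dendritic and mast cells of mouse colon tumours of 2 kinds.

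The tumours came from male mice and were profiled whole, as single cells, after dead cells had been sorted out with DAPI. In the 3 libraries named Apc ICI, the mice carried VilCreER and Apcfl/fl, and 70 µl of 100 µM 4-OH tamoxifen was injected once under the lining of the colon, so that the gene was deleted locally; the labels call this group Intracolonic Induction. In the 3 libraries named AOM PN, the mice carried VilcreER, P53fl/fl and Notch1Tg and received 2 mg tamoxifen into the peritoneum and then the carcinogen azoxymethane (AOM) at 10 mg/kg weekly for 6 weeks from day 4; the labels call this group Ageing Tumor. All mice were culled at clinical endpoint, and the villin promoter drives Cre in the gut epithelium, not in the immune cells described here. The targeted genes, the carcinogen and the way of induction all differ between the groups, so their parts cannot be told apart, and the labels name no batch and do not say that each library was a separate animal. The p-values below therefore measure only the spread between these libraries.

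As background, CD28 gives the second signal that a resting T cell needs beside its antigen receptor, and ICOS, a relative of CD28, appears after activation and binds ICOS ligand on B and myeloid cells. OX40, 4-1BB and GITR are members of the TNF receptor superfamily that rise after antigen stimulation, are abundant on regulatory T cells, and signal through TRAF adaptors to NF-kB. Their ligands sit on activated antigen presenting cells. CD40 runs the other way: it is carried by B cells and dendritic cells and is engaged by CD40 ligand on activated helper T cells.

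The libraries held 6873 to 16137 cell barcodes and 59309093 to 98583066 UMIs (unique molecular identifiers, 1 per captured transcript), of which haemoglobin genes took 1.87% to 61.4%; these genes were left out of all sums. Pairs of libraries shared 10 to 52 barcodes, at most 0.508% of the smaller library. After filters and removal of called doublets, 4801 to 11475 cells per library were kept. Clusters were named from marker genes, without use of the 10 members, by naming rules set after the clusters were seen, so the names can differ from those of the study. T, NK and innate lymphoid cells together (T/NK-like) numbered 435, 424 and 212 in Apc ICI and 1584, 673 and 1675 in AOM PN. Levels are given as CPM, counts per 1000000 of the UMIs summed over the cells of a class in a library, so fewer cells of a kind with much of a transcript and less transcript per cell cannot be told apart in such a sum. Levels are compared between genes with the 3′ counting in mind, in which a transcript gives about 1 tag whatever its length. Intervals and limits from UMI counts cover counting error only.

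OX40, 4-1BB and GITR transcripts were highest in regulatory T cells. The Treg-like cells carried their defining markers, with Foxp3 at 274 to 571 CPM in Apc ICI and 249 to 382 CPM in AOM PN. In the 4 libraries with at least 20 such cells, Tnfrsf4 stood at 1799 ± 162 CPM (SD, n = 4). The next class, conventional CD4 T-like cells, held 558 ± 223 CPM (SD, n = 6), and the lowest Treg-like library lay above the highest conventional one. At this minimum of 20 cells, helper ILC-like, CD8 T-like and cDC2-like levels come from AOM PN libraries alone, Treg-like levels from 1 Apc ICI and 3 AOM PN libraries and NK/ILC1-like levels from 1 library of each group, so their place in an order holds for those libraries. Helper ILC-like cells (193 ± 118 CPM, SD, n = 2) and mature dendritic-like cells (109 ± 24.9 CPM, SD, n = 6) followed, and these neighbours overlapped. Tnfrsf18 had the same leading class, at 914 ± 246 CPM (SD, n = 4) in Treg-like cells. Helper ILC-like cells at 639 ± 56.2 CPM (SD, n = 2), conventional CD4 at 397 ± 78.6 CPM (SD, n = 6), CD8 T-like at 255 ± 32.0 CPM (SD, n = 3) and NK/ILC1-like at 110 ± 9.83 CPM (SD, n = 2) followed. This order did not hold in smaller sums: the Apc ICI CD8 T-like cells held 450, 642 and 280 CPM of Tnfrsf18, 1 value within, 1 above and 1 below the range of conventional CD4 (313 to 533 CPM), and the 14 helper ILC-like cells of AOM PN replicate 2 held 494 CPM.

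Tnfrsf9 differed from both in that γδ T cells shared its top level. It stood at 1633 ± 178 CPM (SD, n = 4) in Treg-like and 1254 ± 639 CPM (SD, n = 6) in γδ T-like cells, which overlapped, and then fell away to helper ILC-like cells at 298 ± 142 CPM (SD, n = 2), CD8 T-like at 250 ± 27.7 CPM (SD, n = 3), conventional CD4 at 234 ± 135 CPM (SD, n = 6) and mature dendritic-like cells at 231 ± 35.2 CPM (SD, n = 6). Those last classes were not separated. Epithelial-like cells, taken as a cell type that should lack these receptors, gave the level that free RNA can leave: 3.98 ± 5.13 CPM for Tnfrsf4, 4.34 ± 2.85 CPM for Tnfrsf9 and 3.68 ± 1.43 CPM for Tnfrsf18 (SD, n = 6).

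**Figure D1:**
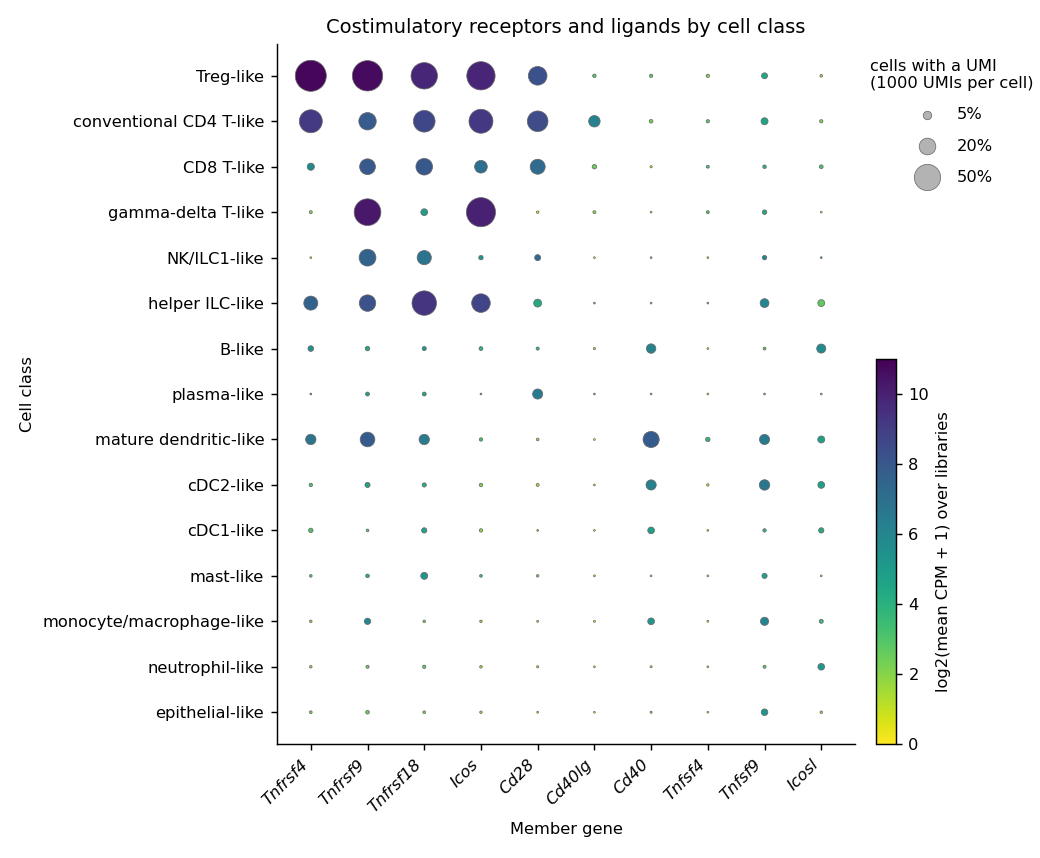
Levels of the 10 members in 15 cell classes. Columns are the members and rows the classes; the colour of a dot is log2(mean CPM + 1) over libraries with at least 20 cells of the class, and its size is the share of cells with a UMI of the gene after each cell was thinned to 1000 UMIs. Tnfrsf4 and Tnfrsf18 lead in Treg-like cells, at 1799 and 914 CPM, and Cd40 leads in mature dendritic-like cells, at 226 CPM.

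Most single regulatory T cells carried these receptors. After each cell was thinned to 1000 UMIs, a Tnfrsf4 UMI was seen in 70.1% of 1064 Treg-like cells, a Tnfrsf9 UMI in 67.1% and a Tnfrsf18 UMI in 50.8%. In 3645 epithelial-like cells at the same depth the shares were 0.329%, 0.768% and 0.329%. Before thinning, 93.8% of the 998 Treg-like cells with a Tnfrsf4 UMI also had one of Tnfrsf9 and 88.0% also had one of Tnfrsf18, against 74.0% and 66.2% of those without; deeper cells show more of every gene, so these shares are a description. The 2 Treg-like sub-clusters differed in the mix. Sub-cluster 1, led by Tnfrsf4 and Penk although the members took no part in clustering, pooled 2222 CPM of Tnfrsf4, 1069 of Tnfrsf18 and 778 of Icos. Sub-cluster 3, led by Fabp5, Tff1, Hopx and Il10, the last a suppressive cytokine, pooled 1313 CPM of Tnfrsf4 and 512 of Tnfrsf18 but 1208 of Icos. Treg-like cells numbered 19, 21 and 13 in Apc ICI and 444, 144 and 434 in AOM PN. The shares and pooled values in this paragraph therefore describe mainly AOM PN.

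Tnfrsf4 (chr4:156013595-156016613) and Tnfrsf18 (chr4:156026322-156028894) are neighbours on mouse chromosome 4 with 9708 bases between them, and Tnfrsf9 (chr4:150920155-150946104) lies on the same chromosome, in RefSeq's annotation of GRCm38.p6. Because these 3 genes shared their leading class, the RefSeq stretches from 250 bases before to 50 bases after an annotated transcript start are shown, plus strand, 5′ to 3′, with motif matches in capitals. For Tnfrsf4 that start lies within the gene, downstream of its first annotated base, and for Tnfrsf9 the downstream of its starts is shown; the counts used here do not show which start was active. The stretches are chr4:156013445-156013744, chr4:156026072-156026371 and chr4:150927749-150928048.
Tnfrsf4: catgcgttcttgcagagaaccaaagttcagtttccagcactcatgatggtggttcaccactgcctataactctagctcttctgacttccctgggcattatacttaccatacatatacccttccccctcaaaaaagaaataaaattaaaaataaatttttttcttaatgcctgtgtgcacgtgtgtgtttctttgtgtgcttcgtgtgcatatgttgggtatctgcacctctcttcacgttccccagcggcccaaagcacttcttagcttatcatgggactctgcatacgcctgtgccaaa
Tnfrsf18: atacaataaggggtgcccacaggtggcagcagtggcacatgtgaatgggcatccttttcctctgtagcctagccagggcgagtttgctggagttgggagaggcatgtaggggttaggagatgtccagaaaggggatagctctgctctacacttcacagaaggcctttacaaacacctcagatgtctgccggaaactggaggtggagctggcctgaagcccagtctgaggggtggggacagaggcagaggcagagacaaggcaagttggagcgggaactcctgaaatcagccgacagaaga
Tnfrsf9: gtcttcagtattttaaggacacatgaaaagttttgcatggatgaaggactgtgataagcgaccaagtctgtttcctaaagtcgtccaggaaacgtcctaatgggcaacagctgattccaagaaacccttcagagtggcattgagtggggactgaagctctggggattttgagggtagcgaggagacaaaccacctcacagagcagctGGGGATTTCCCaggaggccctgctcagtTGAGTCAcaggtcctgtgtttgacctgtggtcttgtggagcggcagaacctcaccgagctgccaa
Searches were made on both strands for the NF-kB consensus, the AP-1 site TGANTCA and the forkhead site TGTTTAC, the last bound by factors such as FOXP3. The Tnfrsf9 stretch held overlapping matches to the NF-kB consensus starting 43 and 42 bases before the start and an AP-1 match 15 bases before it. The Tnfrsf4 and Tnfrsf18 stretches, like the one at the upstream Tnfrsf9 start, held none of the 3 motifs. Of 32851 RefSeq promoter stretches of 300 bases, 8.46% held the NF-kB consensus, 7.81% the AP-1 site and 3.65% the forkhead site. A match is a run of letters, not a bound site. Of the 10 members 4 had a promoter in the table, the other being Icosl (chr10:78069368-78079525), with 1 match to the NF-kB consensus 111 bases before its start.

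Icos was high in γδ and CD4 T cells alike, while the leading classes for Cd28 were the CD4 T cells. Among the named classes, Icos (chr1:60960773-61000322) was led by γδ T-like cells at 1010 ± 174 CPM (SD, n = 6). Some unnamed T/NK-like sub-clusters pooled more Icos, as given below with Cd40lg. Treg-like cells at 940 ± 142 CPM (SD, n = 4), conventional CD4 at 593 ± 214 CPM (SD, n = 6) and helper ILC-like cells at 440 ± 183 CPM (SD, n = 2) followed, each overlapping the class before it. CD8 T-like cells of AOM PN held 133 ± 44.2 CPM (SD, n = 3), below these, whereas the 3 Apc ICI sums of 11 or 12 CD8 T-like cells, at 527, 311 and 115 CPM of Icos, overlapped conventional CD4. Cd28 (chr1:60746388-60773359) was near equal in conventional CD4 (355 ± 79.2 CPM, SD, n = 6) and Treg-like cells (308 ± 20.2 CPM, SD, n = 4). It stood at 147 ± 68.5 CPM in NK/ILC1-like cells (SD, n = 2) and at 145 ± 28.3 CPM in the CD8 T-like cells of AOM PN (SD, n = 3). In Apc ICI the order turned, with 461 to 477 CPM of Cd28 in CD8 T-like cells against 203 to 362 CPM in conventional CD4. The γδ T-like cells, which matched Treg-like cells for Icos, held 0.52 ± 1.28 CPM of Cd28 (SD, n = 6).

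Cd40lg, the helper T cell signal to B and dendritic cells, was the member most narrowly placed among the named classes. Conventional CD4 T-like cells held 71.1 ± 37.8 CPM (SD, n = 6), above every library of the next class, Treg-like cells, at 6.45 ± 5.31 CPM (SD, n = 4). After thinning, 9.35% of 535 conventional CD4 cells had a Cd40lg UMI, against 0.0063% of 15753 neutrophil-like cells. Some of the Cd40lg lay in clusters that received no name. A Cd4-expressing sub-cluster led by Il17a and Il17f pooled 160 CPM of Cd40lg with 887 CPM of Icos, and 2 unnamed sub-clusters, one of them led by Il22, pooled 143 and 118 CPM of Cd40lg with 1231 and 1523 CPM of Icos. Cd40lg lies at chrX:57212143-57224042.

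On the presenting side, CD40 marked mature dendritic cells. These cells, identified by the mature dendritic cell markers Ccr7 (2232 to 3326 CPM over all libraries) and Fscn1, held 226 ± 63.1 CPM of Cd40 (SD, n = 6). Every one of these values lay above every library of the next class. Cd40 lies at chr2:165055614-165071654. cDC2-like cells, the CD4 T cell priming subset, held 72.5 ± 16.8 CPM (SD, n = 3) and B-like cells 65.9 ± 18.8 CPM (SD, n = 6), not separated from each other, and monocytes and macrophages 34.3 ± 3.74 CPM (SD, n = 6). The ligands were spread more evenly. Tnfsf9 (chr17:57105287-57107758) stood at 101 ± 34.3 CPM in cDC2-like cells (SD, n = 3), 89.5 ± 14.4 CPM in mature dendritic-like cells (SD, n = 6) and 62.8 ± 13 CPM in monocyte/macrophage-like cells (SD, n = 6), each overlapping its neighbours in the order.

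Icosl was led by B-like cells at 51.7 ± 7.86 CPM (SD, n = 6), followed by neutrophil-like cells at 32.8 ± 13.2 CPM and mature dendritic-like cells at 27.2 ± 11.1 CPM (SD, n = 6 each), again without a gap. Tnfsf4 (chr1:161395438-161418206) was the scarcest member. Mature dendritic-like cells led with 12.2 ± 9.39 CPM (SD, n = 6), not separated from CD8 T-like (9.18 ± 7.36 CPM, SD, n = 3) or γδ T-like cells (7.74 ± 4.46 CPM, SD, n = 6). In mature dendritic-like cells the ligands went with Cd40: 46.5% of the 198 cells with a Cd40 UMI also had a Tnfsf9 UMI, against 13.9% of those without, a description in which depth is shared. These cells also carried the receptors. Of 105 mature dendritic-like cells with a Tnfrsf4 UMI, 62.9% had a Tnfrsf18 UMI, against 23.4% of those without.

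Genes most like each member were ranked by Pearson correlation of log2(CPM + 1) over 18 classes among 13413 genes, a description in which the classes share libraries and depth. Nearest to Tnfrsf4 were Tox2 (0.88), Slamf1 (0.87), Myo3b (0.86), Ccr4 (0.85) and Foxp3 (0.85), and nearest to Tnfrsf9 were Il2ra (0.94), Camk4 (0.92) and AW112010 (0.91). Icos lay nearest to Podnl1, Cd3g and Trbc2 (0.96 each), and Cd28 to Lck (0.92) and Cd2 (0.90). Cd40 lay nearest to Chst7 (0.88), with the MHC class II gene H2-Eb1 (0.87) among its first 5, and Cd40lg to Trbv2 and Trat1 (0.87 each). Tnfrsf18 had Pglyrp2 (0.90), Icosl had Unc93b1 (0.83), Tnfsf4 had Tgtp1 (0.89) and Tnfsf9 had Pdgfb (0.85).

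AOM PN was then compared with Apc ICI class by class, with edgeR's quasi-likelihood test on summed counts and Benjamini-Hochberg adjustment over all genes tested. In T/NK-like cells as a whole, OX40 was the member that rose. Tnfrsf4 was 166, 343 and 284 CPM in Apc ICI and 499, 433 and 593 CPM in AOM PN. All 3 AOM PN libraries lay above all 3 Apc ICI libraries, and the log2 change was 1.10 ± 0.22 (SE; 2.14-fold; edgeR adjusted p = 0.0211). Of the 8 members tested here, 1 was called, where 7.71% of all 10296 genes tested were called. Without Apc ICI replicate 3 the call was lost (edgeR adjusted p = 0.0760).

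The make-up of the T/NK-like cells moved with this rise. Treg-like cells, the class richest in Tnfrsf4, made up 4.37%, 4.95% and 6.13% of T/NK-like cells in Apc ICI and 28.0%, 21.4% and 25.9% in AOM PN. Foxp3 over all T/NK-like cells ranged from 32.7 to 67.4 CPM and from 54.2 to 104 CPM. The gap was smaller for T/NK-like cells with a Foxp3 UMI, at most 12.5% in any Apc ICI library and at least 17.7% in AOM PN. Such cells were shallow in Apc ICI replicates 2 and 3 (medians 1540 and 1308 UMIs) but not in replicate 1 (4280.5). Cells without a subset name numbered 249, 272 and 131 of the 435, 424 and 212 T/NK-like cells in Apc ICI. In AOM PN they numbered 354, 261 and 716 of 1584, 673 and 1675. The part of naming and depth in the Treg-like shares was not tested. A sub-cluster of low-depth cells (median 969.5 UMIs), left unnamed, was larger in Apc ICI. Without that sub-cluster Tnfrsf4 was 143, 324 and 249 CPM in Apc ICI and 500, 435 and 594 CPM in AOM PN, a log2 change of 1.20 ± 0.25 (SE; edgeR adjusted p = 0.0321); 1 of 8 members tested was called there, against 3.28% of all genes. Within T/NK-like cells that had a Foxp3 UMI the log2 change of Tnfrsf4 was 0.37 ± 0.22 (SE; edgeR adjusted p = 0.447), and none of the 6 members tested was called, against 1.32% of all genes (1 member had an unadjusted p under 0.05).

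The other receptors of T/NK-like cells did not pass. Tnfrsf9 was 664, 918 and 1183 CPM in Apc ICI and 670, 615 and 669 CPM in AOM PN, which overlapped (edgeR adjusted p = 0.204). Tnfrsf18 was 161, 348 and 255 CPM against 360, 316 and 321 CPM, with Apc ICI replicate 2 among the AOM PN values (edgeR adjusted p = 0.157). Cd28 (118, 189 and 104 CPM against 193, 173 and 157 CPM; edgeR adjusted p = 0.163) and Icos (1044, 899 and 914 CPM against 607, 551 and 1015 CPM; edgeR adjusted p = 0.484) also overlapped. For Cd40lg, AOM PN replicate 3 held the highest value, 84 CPM, and without it the log2 change turned from 0.42 to -0.22.

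**Figure D2:**
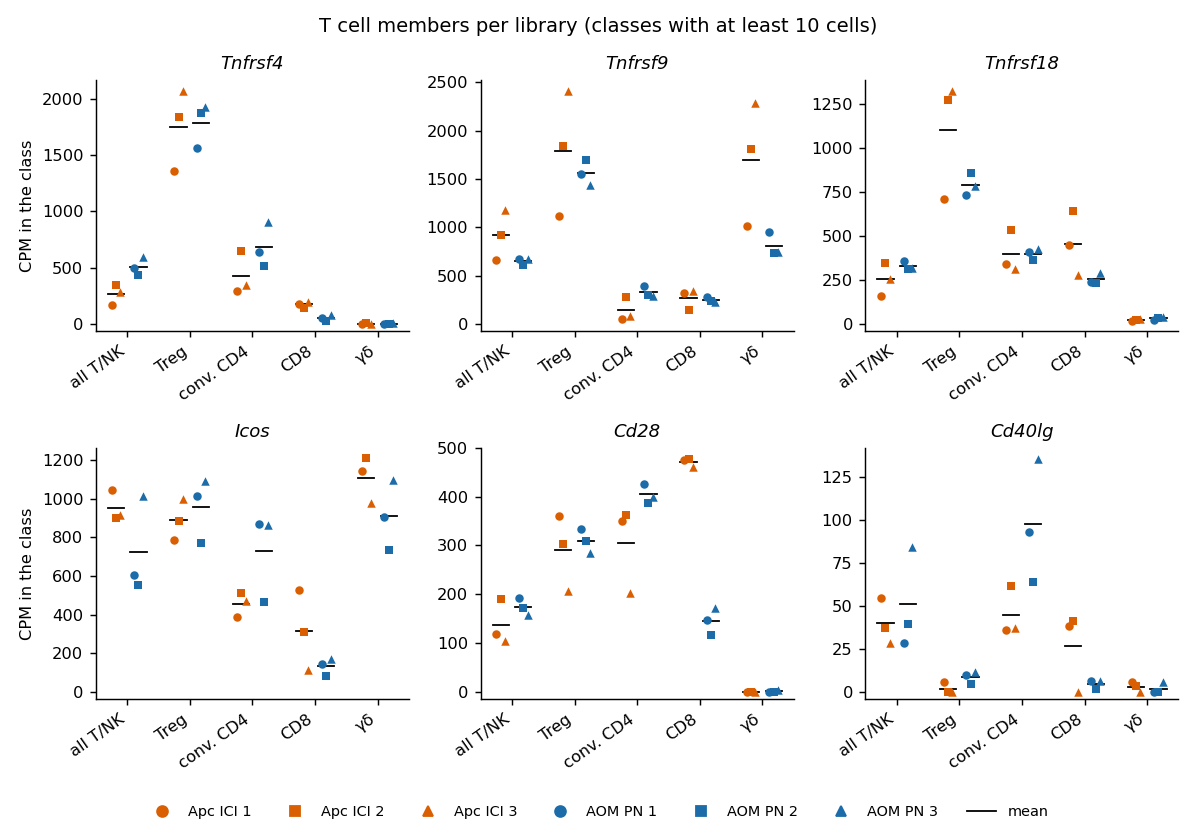
Levels of 6 members, in CPM, in each library for all T/NK-like cells and for Treg-like, conventional CD4, CD8 and γδ T-like cells. Each point is 1 library with at least 10 cells of the class, coloured by group, and the lines mark the group means. Tnfrsf4 separates the groups over all T/NK-like cells (166 to 343 against 433 to 593 CPM) but overlaps within Treg-like cells.

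Within regulatory T cells no member was called. Apc ICI held only 19, 21 and 13 Treg-like cells against 444, 144 and 434, so the minimum was lowered to 10 cells per library after the data were seen. Tnfrsf4 was 1359, 1833 and 2065 CPM in Apc ICI and 1564, 1872 and 1928 CPM in AOM PN. These ranges overlapped, with a log2 change of 0.12 ± 0.17 (SE; edgeR adjusted p = 0.850). In Treg-like sub-cluster 1 Tnfrsf4 was 2001, 2222 and 2357 CPM against 1871, 2086 and 2626 CPM, which also overlapped. In sub-cluster 3 it was 814 and 529 CPM in Apc ICI replicates 1 and 2 against 1314, 1374 and 1352 CPM, without overlap. Those Apc ICI values rest on 11 and 6 cells, and replicate 3, with 4 cells, has no value. The sub-cluster values were not tested. Tnfrsf9 (1114, 1846 and 2409 against 1551, 1701 and 1436 CPM) and Tnfrsf18 (714, 1275 and 1325 against 737, 862 and 783 CPM) were widest among the small Apc ICI sums. Of 6 members tested by edgeR 0 were called, 1 had an unadjusted p under 0.05, and DESeq2 called 0; 0.211% of all genes were called. That 1 member was Tnfsf9, the ligand, with 0 UMIs in the 53 cells of Apc ICI, which allows up to 9.51 CPM over the group (3 counts), against 25.8, 36.9 and 18.5 CPM in AOM PN (edgeR adjusted p = 0.229).

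Icos and Cd28, which give T cells their costimulatory signals through related receptors, were not called in regulatory T cells either. Icos was 788, 886 and 998 CPM in Apc ICI and 1014, 769 and 1091 CPM in AOM PN, with 95% bounds of the log2 change from -0.16 to 0.54. Cd28 was 360, 304 and 206 CPM against 334, 309 and 285 CPM, with bounds from -0.36 to 0.50. Both pairs of ranges overlapped.

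In conventional CD4 T-like cells none of 7 members tested was called by edgeR after adjustment, and DESeq2 called 0, where edgeR called 2.38% of all genes. Before adjustment 5 of the 7 had an edgeR p under 0.05, all higher in AOM PN. The share of all genes at that unadjusted threshold is not given, so the 5 cannot be set against it. Tnfrsf9 was 53.7, 283 and 82.9 CPM in Apc ICI and 394, 301 and 286 CPM in AOM PN. The groups did not overlap, though Apc ICI replicate 2 lay just under the lowest AOM PN value (log2 change 1.06 ± 0.36, SE; edgeR adjusted p = 0.150). Cd40lg was 35.8, 61.7 and 36.9 CPM against 92.7, 64.0 and 135 CPM, again without overlap and with Apc ICI replicate 2 close below (log2 change 1.00 ± 0.33, SE; edgeR adjusted p = 0.134). Icos was 385, 511 and 470 CPM against 866, 464 and 862 CPM, where AOM PN replicate 2 fell within the Apc ICI range (edgeR adjusted p = 0.135).

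Tnfrsf4, like Icos, had AOM PN replicate 2 within the Apc ICI range in these cells, at 290, 651 and 350 CPM against 635, 519 and 902 CPM (log2 change 0.60 ± 0.25, SE; edgeR adjusted p = 0.239). Tnfrsf18 was 340, 533 and 313 CPM against 408, 363 and 426 CPM, with no common direction (edgeR adjusted p = 0.897). The ligand Tnfsf9 was 14.9, 11.2 and 18.4 CPM against 42.1, 26.0 and 23.9 CPM, without overlap (edgeR adjusted p = 0.240). Cd28 was 349, 362 and 203 CPM against 426, 388 and 399 CPM, also without overlap (edgeR adjusted p = 0.466).

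A resting sub-cluster moved with these values. Sub-cluster 14, which expressed Lef1 and Tcf7, genes of naive T cells, made up 48.9%, 46.3% and 45% of conventional CD4 T-like cells in Apc ICI and 0%, 12.9% and 7.19% in AOM PN, and its Tnfrsf4 was 50.6, 83.8 and 67.5 CPM in the Apc ICI libraries. In the other sub-cluster, number 5, Tnfrsf4 was 503, 1089 and 546 CPM in Apc ICI and 635, 584 and 947 CPM in AOM PN, which overlapped. Cd40lg there was 45.2, 84.5 and 46.8 CPM against 92.7, 62.5 and 144 CPM, which also overlapped, as did Icos at 565, 786 and 656 CPM against 866, 504 and 891 CPM. Tnfrsf9 (102, 492 and 140 against 394, 340 and 303 CPM) and Tnfsf9 (28.3, 14.9 and 15.6 against 42.1, 29.3 and 25.4 CPM) overlapped in sub-cluster 5 too. Cd28 did not, at 407, 388 and 281 CPM against 426, 422 and 408 CPM, but Apc ICI replicate 1 lay just under AOM PN replicate 3. The part of the naive-like cells in the result over the whole class was not tested.

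Whether the group difference itself differed between Treg-like and conventional CD4 T-like cells was tested as an interaction in libraries with at least 10 cells of both classes. Of 7 members tested by edgeR 0 were called and 2 (Tnfrsf9 and Tnfsf9) had an unadjusted p under 0.05, where 0.0498% of all genes were called. Tnfsf9 had 0 UMIs in the Treg-like cells of Apc ICI, so its fitted value is set against a count of 0 and is not given. The difference was -1.23 ± 0.33 for Tnfrsf9 on the log2 scale (SE; edgeR adjusted p = 0.221) and -0.49 ± 0.24 for Tnfrsf4 (SE; edgeR adjusted p = 0.656).

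**Figure D3:**
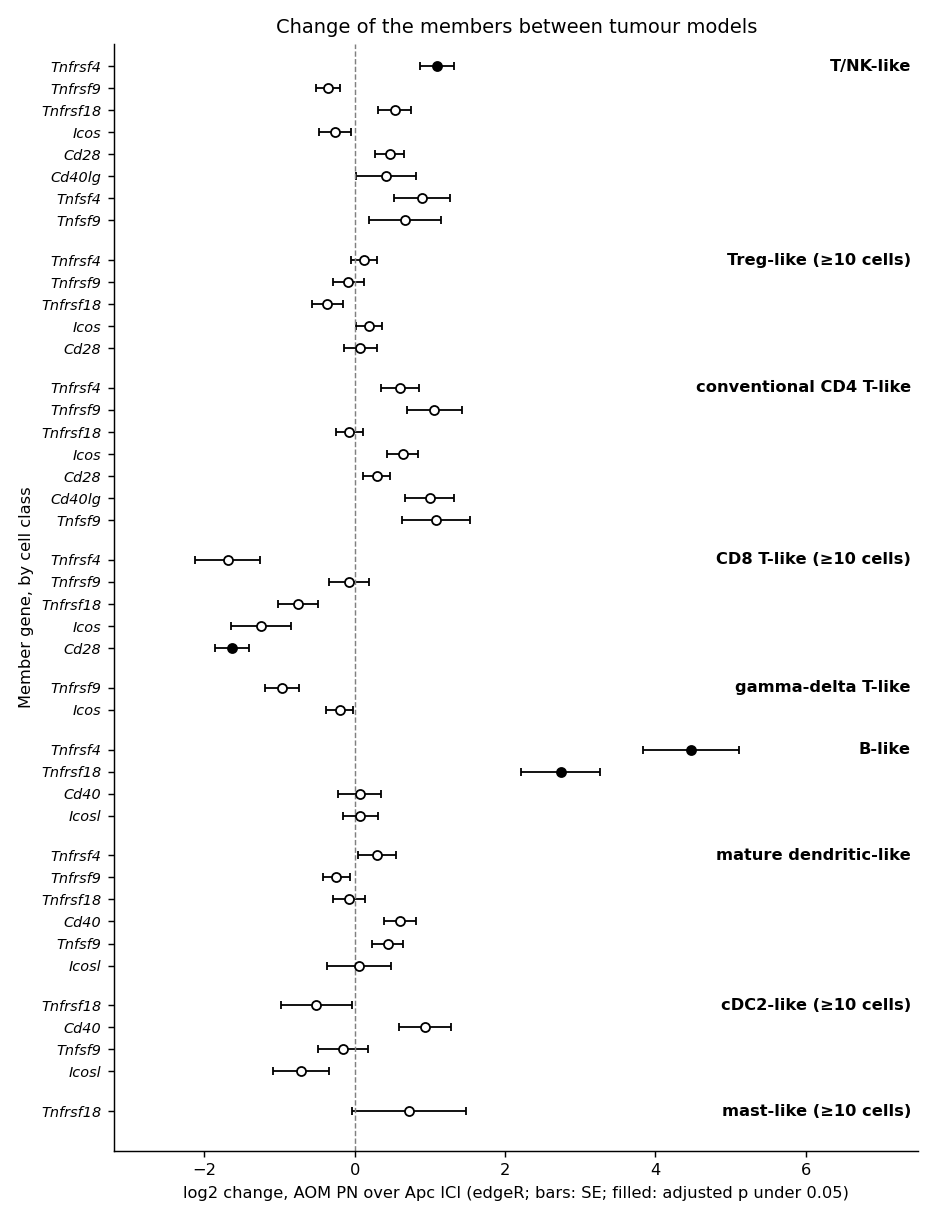
Log2 change of the members, AOM PN over Apc ICI, in each class tested. Points are edgeR estimates, bars 1 SE, and filled points have an adjusted p under 0.05; members with at most 3 UMIs in a group are not drawn. The filled points are Tnfrsf4 in T/NK-like cells (1.10), Tnfrsf4 and Tnfrsf18 in B-like cells (4.47 and 2.74) and Cd28 in CD8 T-like cells (-1.64).

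Summed over CD8 T-like cells, CD28 transcripts fell, while the class was made up of different cells in each group. Cd28 was 475, 477 and 461 CPM in Apc ICI and 147, 116 and 172 CPM in AOM PN. The 3 Apc ICI values were close together and far above the others (log2 change -1.64 ± 0.23, SE; edgeR adjusted p = 0.00472), although they rest on only 12, 11 and 11 cells against 498, 109 and 105. Of 5 members tested 1 was called, against 1.05% of all genes, and the call was lost without Apc ICI replicate 1 (edgeR adjusted p = 0.0621). Tnfrsf4 was 180, 145 and 197 CPM against 50.4, 30.9 and 83.8 CPM, without overlap (log2 change -1.69 ± 0.43, SE; edgeR adjusted p = 0.0710; DESeq2 adjusted p = 0.0127).

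Other values moved with the fall of Cd28. Sub-cluster 7, led by Gzmk and Ccl5, made up 83.3%, 100% and 63.6% of CD8 T-like cells in Apc ICI and 39.4%, 33.0% and 56.2% in AOM PN; sub-cluster 6, led by Cd7, the killing protease gene Gzmc and Fcer1g, held the rest (302, 73 and 46 cells in AOM PN), with Cd28 at 25.3, 37.8 and 18.8 CPM in AOM PN. Sub-cluster 6 had a UMI of Cd8a in 78.9% of its 427 cells but of Cd8b1, the other CD8 chain, in 9.37%, against 57.7% and 63.6% in sub-cluster 7. Fcer1g, an adaptor gene of NK and other innate cells, was seen in 97.0% of sub-cluster 6, 16.6% of sub-cluster 7 and 100% of the NK/ILC1-like cells. The T cell gene Cd3e was seen in 90.2%, 89.7% and 4.82%. Sub-cluster 6 thus carried a T cell gene together with a gene of innate cells. Within sub-cluster 7 Cd28 was 698, 477 and 709 CPM in Apc ICI and 463, 419 and 402 CPM in AOM PN, lower in all 3 AOM PN libraries. Cd8a itself was 128 to 456 CPM in Apc ICI and 480 to 679 CPM in AOM PN, and Cd4 33 to 116 CPM against 2.5 to 33.8 CPM; the part of such cells in the Cd28 result was not tested. Tnfrsf18 (450, 642 and 280 against 238, 234 and 292 CPM; edgeR adjusted p = 0.178) and Icos (527, 311 and 115 against 143, 84.2 and 171 CPM; edgeR adjusted p = 0.137) overlapped. Tnfrsf9, known as a costimulator of CD8 T cells, was 321, 145 and 345 CPM against 281, 242 and 227 CPM (edgeR adjusted p = 0.925).

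In γδ T-like cells 4-1BB was lower in AOM PN in every library, without passing the adjusted threshold. These cells had Trdc at 4263 to 5263 CPM and no Cd4 UMI. The class is that of clustering at resolution 1, where an unnamed sub-cluster of 64 cells led by Trdc was left out. At resolution 2 a further sub-cluster of 421 cells was also named γδ T. It held 4, 13 and 5 cells in Apc ICI and 49, 58 and 292 in AOM PN. Tnfrsf9 was 1010, 1805 and 2281 CPM in Apc ICI and 953, 729 and 746 CPM in AOM PN. The groups did not overlap, but Apc ICI replicate 1 lay close to AOM PN replicate 1 (log2 change -0.97 ± 0.23, SE; edgeR adjusted p = 0.0781; DESeq2 adjusted p = 0.00660). Icos was 1142, 1208 and 978 CPM against 903, 735 and 1096 CPM, with overlap (edgeR adjusted p = 0.675). Of 2 members tested by edgeR 0 were called, 1 had an unadjusted p under 0.05, and DESeq2 called 1; 0.513% of all genes were called.

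Innate lymphocytes were few. NK/ILC1-like cells reached 10 cells in 2 libraries of each group. Of 3 members tested there by edgeR 0 were called, 0 had an unadjusted p under 0.05, and DESeq2 called 0; 0% of all genes were called. Helper ILC-like cells had no test, since Apc ICI held only 1, 8 and 0 of them. In AOM PN they held Tnfrsf18 at 679, 494 and 599 CPM, Icos at 311, 306 and 570 CPM, Tnfrsf9 at 398, 581 and 197 CPM and Tnfrsf4 at 277, 118 and 110 CPM. GITR was the highest of these 4 receptors in replicates 1 and 3, and 4-1BB in replicate 2.

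In B-like cells OX40 and GITR transcripts rose, and T cell markers moved with them. The cells carried Cd79a at 2683 to 3097 CPM. Tnfrsf4 was 3.37, 1.58 and 4.10 CPM in Apc ICI and 121, 99.5 and 31.7 CPM in AOM PN. The highest Apc ICI value was that of 1 UMI, and the AOM PN values rest on 22, 29 and 34 UMIs (log2 change 4.47 ± 0.64, SE; edgeR adjusted p = 0.00672). Tnfrsf18 was 7.59, 11.0 and 4.10 CPM against 71.8, 99.5 and 28.0 CPM, also without overlap (log2 change 2.74 ± 0.52, SE; edgeR adjusted p = 0.0244). Of 4 members tested 2 were called, against 0.743% of all genes. Both calls were lost without Apc ICI replicate 1 (edgeR adjusted p = 0.0995 for Tnfrsf4 and 0.181 for Tnfrsf18) or replicate 2 (0.0732 and 0.122), and that of Tnfrsf18 also without replicate 3 (0.0664).

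Summed over 10 T cell markers, these B-like sums held 21.1, 134 and 20.5 CPM in Apc ICI and 464, 299 and 65.4 CPM in AOM PN, and over 9 Treg markers 5.9, 23.7 and 8.2 CPM against 121, 92.7 and 47.6 CPM. In Apc ICI 3, 0 and 8 of the 10 T markers had no UMI, in AOM PN 0. Cd3e was 0 to 7.89 CPM against 7.47 to 20.6 CPM, and Foxp3 was at most 1.69 CPM in Apc ICI and up to 38.6 CPM in AOM PN. When every cell with a UMI of any of the 10 T markers was left out, 224, 130 and 59 cells stayed in Apc ICI and 40, 53 and 277 in AOM PN. Tnfrsf4 was then 3.76, 1.90 and 4.49 CPM in Apc ICI and 13.2, 8.56 and 2.07 CPM in AOM PN, 2 UMIs in each AOM PN library. Tnfrsf18 was 8.46, 11.4 and 4.49 CPM against 6.6, 34.2 and 18.6 CPM. The ranges overlapped, neither gene passed the filter on low counts, and of the 2 members tested edgeR called 0, with 0 at an unadjusted p under 0.05 and 0.632% of all genes called.

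**Figure D4:**
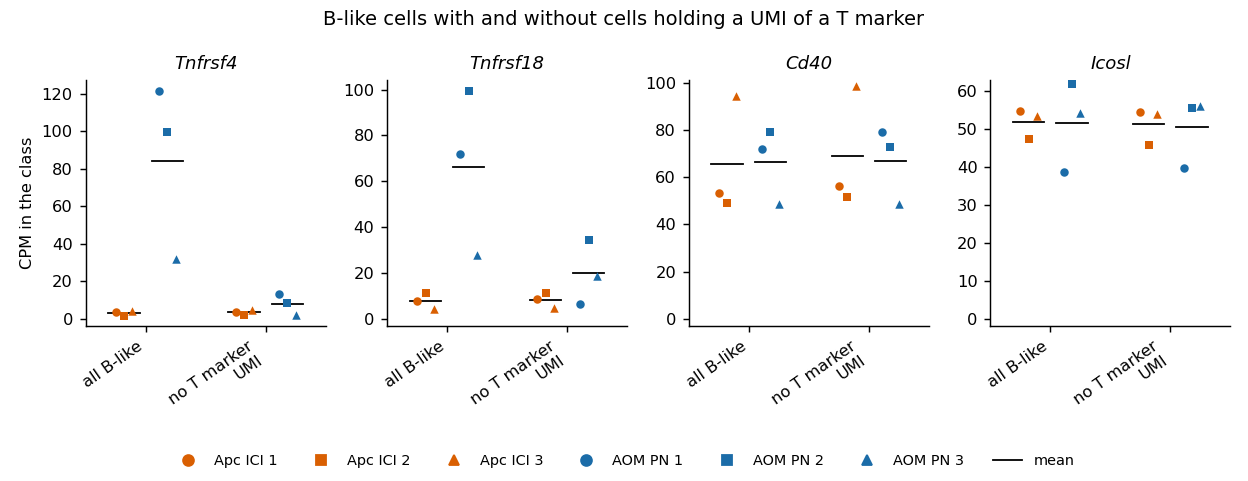
Tnfrsf4, Tnfrsf18, Cd40 and Icosl in B-like cells, in CPM per library, for all B-like cells and for those without a UMI of any of 10 T cell markers. Points are libraries, coloured by group, with lines at the group means. Tnfrsf4 in AOM PN runs from 31.7 to 121 CPM with all cells and from 2.07 to 13.2 CPM without the cells that carry a T marker, while Cd40 and Icosl stay at similar levels.

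The members that B cells are known for were not called. Icosl was 54.8, 47.3 and 53.3 CPM in Apc ICI and 38.6, 61.8 and 54.1 CPM in AOM PN, with 95% bounds of the log2 change from -0.39 to 0.53. Cd40 was 53.1, 48.9 and 94.3 CPM against 71.8, 78.9 and 48.5 CPM, with bounds from -0.49 to 0.62. The ranges of each gene overlapped between the groups.

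In mature dendritic cells no member was called, though CD40 and 2 ligands lay higher in every AOM PN library. The share of all genes that did not overlap between the groups is not given, so these are values without a background. Cd40 was 135, 212 and 200 CPM in Apc ICI and 328, 239 and 240 CPM in AOM PN. The groups did not overlap (log2 change 0.61 ± 0.21, SE; edgeR adjusted p = 0.362). Tnfsf9 was 78.0, 72.9 and 82.5 CPM against 90.8, 106 and 107 CPM, also without overlap (log2 change 0.44 ± 0.21, SE; edgeR adjusted p = 0.547). Tnfsf4 was 5.71, 0 and 8.68 CPM against 23.6, 12.9 and 22.6 CPM, from 3, 0 and 2 UMIs against 14, 10 and 16, too few to pass the filter. Of 6 members tested by edgeR 0 were called, 1 had an unadjusted p under 0.05, and DESeq2 called 0; 0.29% of all genes were called.

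The mix of mature dendritic sub-clusters moved with Cd40. Sub-cluster 3, led by Il4i1, Ccl22 and Il12b, made up 25%, 35.6% and 48.0% of these cells in Apc ICI and 66.2%, 70.8% and 54.3% in AOM PN, and within it Cd40 was 193, 184 and 195 CPM against 333, 263 and 241 CPM, without overlap. In the other mature dendritic sub-clusters Cd40 overlapped, at 98.9 and 334 CPM in 2 Apc ICI libraries against 336, 150 and 264 CPM in sub-cluster 7 and at 91.1, 161 and 95.2 CPM against 157, 62.0 and 109 CPM in sub-cluster 8. Sub-cluster 8, of shallow cells (median 1954 UMIs), made up 37.5%, 40.7% and 36% of the class in Apc ICI and 16.9%, 15.4% and 12.3% in AOM PN; the part of this mix in the Cd40 values was not tested. Sub-cluster 7, led by Fscn1 and Ccl5, pooled more Tnfrsf4 (268 against 52.0 CPM in sub-cluster 3), more Tnfsf4 (28.9 against 8.46 CPM) and more Icosl (55.4 against 17.8 CPM). The T markers summed to 15.2 to 30.4 CPM in Apc ICI and 31.0 to 125 CPM in AOM PN in mature dendritic-like cells; with cells carrying a T marker left out, Cd40 was 133, 210 and 203 CPM against 293, 219 and 248 CPM, still without overlap.

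The receptors carried by mature dendritic cells overlapped between the groups. Tnfrsf9 was 228, 261 and 273 CPM against 209, 237 and 176 CPM, and 216, 225 and 230 against 224, 286 and 161 CPM without the cells that carried a T marker. Tnfrsf18 was 78.0, 91.5 and 95.5 CPM against 72.3, 81.1 and 87.5 CPM, and stayed at 82.4, 95.4 and 96.2 against 71.5, 84.5 and 91.0 CPM without those cells. Tnfrsf4 was 89.5, 109 and 99.8 CPM against 121, 82.4 and 151 CPM, and its Apc ICI replicate 3 fell to 10.7 CPM without them. Foxp3, the Treg marker, had 1 UMI in Apc ICI and 0 in AOM PN.

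**Figure D5:**
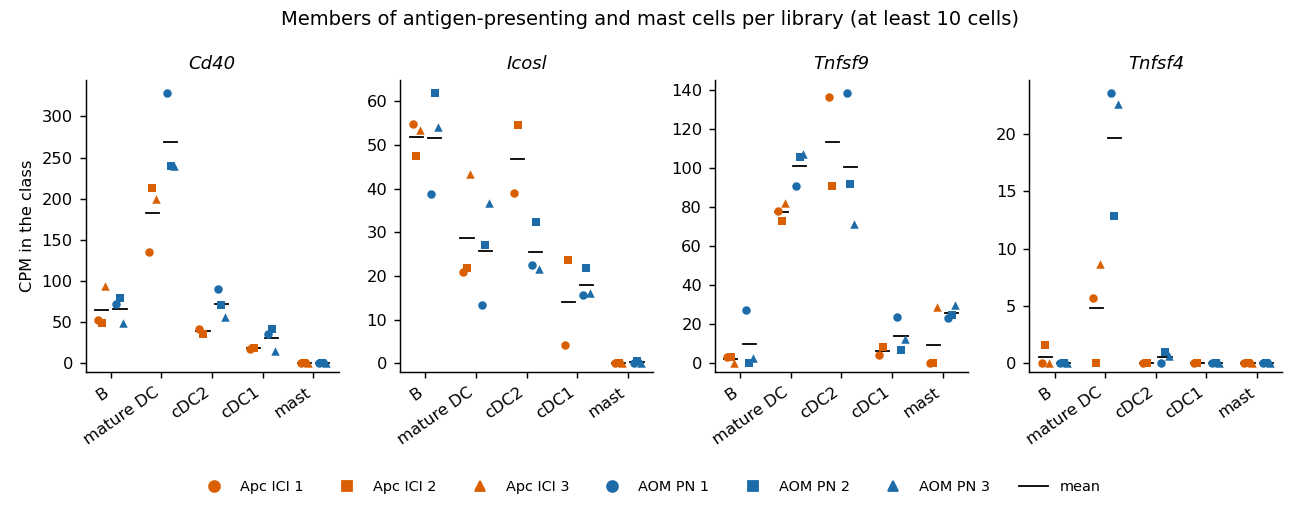
Cd40, Icosl, Tnfsf9 and Tnfsf4 in presenting cells, in CPM per library, for B-like, mature dendritic-like, cDC2-like, cDC1-like and mast-like cells. Points are libraries with at least 10 cells of the class, coloured by group, with lines at the group means. Cd40 in mature dendritic-like cells runs from 135 to 212 CPM in Apc ICI and from 239 to 328 CPM in AOM PN.

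Over all dendritic-like cells together, of 6 members tested by edgeR 0 were called, 1 had an unadjusted p under 0.05, and DESeq2 called 0; 0.611% of all genes were called. In cDC2-like cells 2 Apc ICI libraries reached 10 cells. Cd40 there was 42.2 and 36.3 CPM against 90.3, 70.5 and 56.8 CPM, without overlap (log2 change 0.93 ± 0.34, SE; edgeR adjusted p = 0.237), but the 9 cells of the Apc ICI library left out held 58.2 CPM. Icosl went the other way, 39.0 and 54.5 against 22.6, 32.2 and 21.5 CPM (edgeR adjusted p = 0.413). Tnfsf9 was 136 and 90.9 against 138, 91.7 and 71.5 CPM, with overlap. Of 5 members tested by edgeR 0 were called, 2 had an unadjusted p under 0.05, and DESeq2 called 0; 0.787% of all genes were called. In cDC1-like cells, the subset that primes CD8 T cells, Tnfrsf18 was 8.54 and 15.1 CPM against 19.7, 33.4 and 25.8 CPM (edgeR adjusted p = 0.516), with 30.6 CPM in the 9 cells of the Apc ICI library left out; of 3 members tested by edgeR 0 were called, 1 had an unadjusted p under 0.05, and DESeq2 called 0, against 0.0799% of all genes.

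Mast cells carried little of any member. They numbered 14, 18 and 18 in Apc ICI and 1072, 198 and 2003 in AOM PN. Tnfrsf18 was 26.7, 40.9 and 43.3 CPM in AOM PN and Tnfsf9 23.2, 24.7 and 30.1 CPM, while the Apc ICI sums held 2, 0 and 2 UMIs of Tnfrsf18 and 0, 0 and 2 of Tnfsf9. Of 3 members tested by edgeR 0 were called, 0 had an unadjusted p under 0.05, and DESeq2 called 0, against 0.867% of all genes. The 10 T markers summed to 379 to 606 CPM in Apc ICI and 276 to 377 CPM in AOM PN in mast-like cells. Cd3e was only 0 CPM in Apc ICI and 1.65 to 10.8 CPM in AOM PN. Which markers made up the sums is not given, so they are not read as a measure of T cells. The median log2 change of all genes tested in mast-like cells was 0.30, against which the members' changes in mast-like cells have to be read.

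Genes that work with the members were counted from 4 lists. In T/NK-like cells, of 10 other costimulatory receptors tested 2 rose and 0 fell, Tnfrsf13b (log2 change 0.71, edgeR adjusted p = 0.0212) and Cd2 (0.57, edgeR adjusted p = 0.0273). Of 9 other ligands tested 1 rose, Pdcd1lg2 (1.36, edgeR adjusted p = 0.0136), and 1 fell, Cd86, a ligand of CD28 (-1.94, edgeR adjusted p = 0.00380). Of 19 TRAF and NF-kB genes 1 rose, Nfkbia, the NF-kB inhibitor that NF-kB itself induces (0.63, edgeR adjusted p = 0.0147), and among genes of CD28 and ICOS signalling Grb2 rose (0.45, edgeR adjusted p = 0.0285) and Grap2 fell (-0.60, edgeR adjusted p = 0.0242). Without the sub-cluster of low-depth cells neither Grb2 (0.36, edgeR adjusted p = 0.0860) nor Grap2 (-0.48, edgeR adjusted p = 0.0769) passed, while Tnfrsf13b, Cd2, Pdcd1lg2, Cd86 and Nfkbia did. The median log2 changes of the 4 lists were -0.06, -0.08, -0.02 and -0.16, beside -0.01 over all genes tested.

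In conventional CD4 T-like cells the NF-kB list held 2 genes that rose of 15 tested, Birc3, at 44.8, 87.0 and 55.3 CPM against 147, 128 and 134 CPM (log2 change 1.02, edgeR adjusted p = 0.0289), and Tnfaip3, at 454, 463 and 424 CPM against 748, 670 and 709 CPM (0.61, edgeR adjusted p = 0.0289). Both are targets and regulators of TNF receptor signalling. The other receptor Cd27, a costimulatory TNF receptor of resting cells, fell from 131, 81.4 and 73.7 CPM to 33.7, 39.8 and 41.3 CPM (log2 change -1.43, edgeR adjusted p = 0.0118), 1 of 9 tested. Of the CD28 and ICOS list Maf rose (0.87, edgeR adjusted p = 0.0152) and Grap2 fell (-0.74, edgeR adjusted p = 0.0466), among 14 tested, and 0 of 6 ligands were called. The list medians were 0.27 for receptors, 0.58 for ligands, 0.27 for NF-kB genes and -0.04 for CD28 and ICOS signalling, beside -0.01 over all genes, and the share of naive-like sub-cluster 14 given above moved with them.

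In mature dendritic-like cells 1 of 18 NF-kB genes rose, Nfkbia, from 1336, 1156 and 1350 CPM to 2190, 1990 and 2148 CPM (log2 change 0.76, edgeR adjusted p = 0.0364). Without the cells that carried a T marker it no longer passed (0.72, edgeR adjusted p = 0.0973).

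In CD8 T-like cells, where sub-cluster 6 was most of the class in 2 of 3 AOM PN libraries, 2 of 7 other receptors fell, Cd2 (-1.13, edgeR adjusted p = 0.0265) and Cd27 (-1.40, edgeR adjusted p = 0.0419). Of 14 genes of CD28 and ICOS signalling 1 fell, the transcription factor gene Maf, from 321, 746 and 296 CPM to 72.5, 30.9 and 77.3 CPM (-2.79, edgeR adjusted p = 0.00639). Of 5 ligands 1 was called higher in AOM PN, Pdcd1lg2, which encodes a ligand of PD-1. It was 12.8, 0 and 0 CPM in Apc ICI against 94.7, 100.1 and 78.9 CPM (edgeR adjusted p = 0.0187). The Apc ICI values rest on 1, 0 and 0 UMIs in 12, 11 and 11 cells, so this call is set against a count near 0. None of 14 NF-kB genes was called by edgeR, with 1 (Rela) at an unadjusted p under 0.05, and the 4 list medians were -1.40 for receptors, -0.02 for ligands, -0.11 for NF-kB genes and -0.28 for CD28 and ICOS signalling, beside 0.03 over all genes. In γδ T-like, B-like and all dendritic-like cells no gene of the 4 lists was called by edgeR.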

How the data were processed

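Cell Ranger 6.1.2 and the mm10 build are named in the submitters' processing notes. The files deposited by the authors hold UMI counts per gene and cell barcode for 6 libraries, with no further normalization. The 10 members and all gene lists were chosen with earlier results of these data known. Barcodes under 200 genes or over 20% mitochondrial UMIs were dropped, and doublets were removed at an expected 0.8% per 1000 barcodes. Cells were clustered on 2000 variable genes and 30 principal components (Leiden, resolution 1; scikit-learn 1.9.0, leidenalg 0.10.2), and T/NK-like and dendritic-like cells were clustered again. A cluster was named where at least 3 of its class's markers were detected and its leading genes did not favour another class; these naming rules were set after the clusters were seen. A sub-cluster led by markers of another class stayed unnamed, as did a cluster of 493 cells led by mast cell proteases and histone genes.

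Counts were summed per library and class, without haemoglobin genes, and AOM PN was tested against Apc ICI with edgeR 4.0.16 (quasi-likelihood test, TMM, filterByExpr, Benjamini-Hochberg adjustment over all genes, threshold 0.05; R 4.3.3) where each group had at least 2 libraries of at least 20 cells. For Treg-like, CD8 T-like, NK/ILC1-like, cDC1-like, cDC2-like and mast-like cells, and for the interaction, the minimum was 10 cells, chosen after seeing the data. On counts simulated from these sums, 71% of genes changed 2-fold were called in T/NK-like, 77% in conventional CD4, 67% in γδ T-like, 72% in B-like, 65% in dendritic-like and 47% in mature dendritic-like cells. Class levels carry no test, and classes are set in order by whether the lowest library of one lies above the highest of the next. Shares of cells with a UMI were taken after each cell was thinned to 1000 UMIs. DESeq2 1.42.0, RLE factors, no filter, haemoglobin kept, doublets kept, thinned cells, resolution 2, the replicate number as a block, and each library left out were run as alternatives. Named genes are the 10 members, up to 5 nearest genes per member, class markers, and up to 4 genes per pathway list and class. The last were taken from those with the smallest adjusted p, called or not. An exact permutation test of 3 libraries against 3 cannot go below p = 0.1. Shares of all genes that did not overlap between the groups, or had an unadjusted p under 0.05, are not given. Counts of members by these 2 measures therefore have no like share beside them. Results for some genes of the lists are not reported here.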

Additional observations from a re-analysis of the deposited data

How the results depend on the processing

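Of 686 log2 changes recomputed for 58 combinations of member and class, 609 kept their direction and side of the threshold, 45 changed direction, 25 newly passed and 7 no longer passed. The number of members called in T/NK-like cells, 1, became 5 without a filter on low counts, 2 with thinned cells and 0 to 3 with a library left out (0 without Apc ICI replicate 3). In conventional CD4 T-like cells, 0 became 4 without a filter and 0 to 2 with a library left out. In CD8 T-like cells, 1 became 2 with DESeq2 and 0 to 2 with a library left out. In γδ T-like cells, 0 became 1 with DESeq2, without a filter and at resolution 2, and 0 to 1 with a library left out. In B-like cells, 2 became 5 without a filter, 0 with thinned cells, 0 without cells carrying a T marker, and 0 to 3 with a library left out. In dendritic-like and mature dendritic-like cells 0 became 1 without a filter, and in cDC2-like cells 0 became 1 at resolution 2. The causes of these moves were not tested. Libraries with the same replicate number did not deviate together (correlations -0.28 to 0.01), so the numbers are not taken as pairs; with the replicate block 1 member was called in T/NK-like, 2 in B-like and 2 in CD8 T-like cells.

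Changes of direction all concerned members that were not called. With cells thinned, the log2 change became 0.028 for Tnfrsf9 and -0.10 for Icos in Treg-like cells, 1.47 for Tnfrsf9 in CD8 T-like cells and 0.10 for Tnfsf9 in cDC2-like cells. At resolution 2 it became -0.0049 for Cd28 in Treg-like cells, 0.25 for Tnfrsf18 in NK/ILC1-like cells, and 0.77 for Tnfsf9 and 0.24 for Icosl in cDC2-like cells. With doublets kept it became 0.42 for Tnfrsf9 in NK/ILC1-like cells, -0.031 for Cd40 and -0.16 for Icosl in B-like cells, and -0.042 for Cd40 and 0.016 for Tnfrsf4 in dendritic-like cells. Without cells carrying a T marker it became -0.0204 for Cd40 in B-like cells, and -0.14 for Icosl and 0.0403 for Tnfrsf9 in mature dendritic-like cells. The replicate block gave -0.085 for Icosl in mature dendritic-like and 0.14 for Tnfsf9 in cDC2-like cells, DESeq2 gave -0.001 for Icosl in mature dendritic-like cells, Foxp3-positive cells gave 0.012 for Tnfrsf9 in place of Treg-like cells, and no filter gave 0.0301 for Tnfrsf18 in conventional CD4 T-like cells.

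With a library left out, log2 changes that turned ranged from -0.22 to 0.80 for Cd40lg in T/NK-like cells, from -0.19 to 0.25 for Tnfrsf9 and from -0.0004 to 0.47 for Cd28 in Treg-like cells, from -0.17 to 0.22 for Tnfrsf18 in conventional CD4 T-like cells, from -0.22 to 0.24 for Tnfrsf9 in CD8 T-like cells, and from -0.87 to 0.58 for Cd28 and -0.54 to 0.18 for Tnfrsf18 in NK/ILC1-like cells. In B-like cells they ranged from -0.10 to 0.36 for Cd40 and from -0.023 to 0.17 for Icosl. In dendritic-like cells they ranged from -0.22 to 0.021 for Icosl and from -0.11 to 0.40 for Cd40, in mature dendritic-like cells from -0.29 to 0.35 for Icosl and from -0.16 to 0.0036 for Tnfrsf18, in cDC1-like cells from -0.24 to 2.07 for Icosl, and in cDC2-like cells from -0.43 to 0.33 for Tnfsf9. Where 1 library was left in a group, it is assumed to vary like the others. Depth limits the small Apc ICI sums most: Treg-like, CD8 T-like and mast-like cells numbered at most 21 per Apc ICI library.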

Other observations

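Outside the classes compared, 3 places where a member stood high are given as values. Plasma-like cells, defined by Jchain, held Cd28 at 93.7, 87.7 and 127 CPM in AOM PN, from 71, 22 and 14 cells, with Cd3e at 9.30 to 12.9 CPM in the same sums; the 6 plasma-like cells of Apc ICI held 7 Cd28 UMIs. Neutrophil-like cells held Icosl at 47.1, 47.4 and 26.1 CPM in the Apc ICI libraries against 12.9, 33.0 and 30.02 CPM in AOM PN, which overlapped. After thinning to 1000 UMIs, an Icosl UMI was seen in 3.05% of 15753 neutrophil-like cells, against 0.247% of epithelial-like cells. Epithelial-like cells, in which the villin promoter acts, held Tnfsf9 at 57.1, 44.1 and 52.7 CPM in the Apc ICI libraries; their AOM PN counterparts held 16.0, 20.4 and 37.2 CPM. These did not overlap, while the shares of epithelial-like cells with a Tnfsf9 UMI after thinning were 4.55%, 2.70% and 2.95% against 2.41%, 2.74% and 3.04%, which did.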
